A study of Schizosaccharomyces pombe with 4 samples.

Results

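Small nucleolar RNAs (snoRNAs) were taken from the gene table as the features whose identifier starts with SPSNORNA, which gave 48 of 6808 features. They were compared between wild-type fission yeast, Schizosaccharomyces pombe, and a strain deleted for eif3e, also named int6 or yin6, which encodes the e subunit of the translation initiation factor eIF3. The wild-type strain was h- ura4-D18 leu1-32 and the deletion strain was h- int6::kanMX6 ura4-D18 leu1-32, so both carried the ura4-D18 and leu1-32 markers and the same mating type. Cells of both strains were grown in rich YES medium, and total RNA was depleted of ribosomal RNA (rRNA), fragmented with RNase III and sequenced on the SOLiD 4 platform, with 2 libraries per strain. No label says whether these libraries came from separate cultures, so the p-values measure only the spread between libraries, which may be technical.

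The libraries held 17485007 and 9926542 reads on features in wild type and 28254322 and 16679119 in the deletion strain. Reads on the deleted gene int6 numbered 504 and 194 in wild type, against 1 and 10 after deletion, a log2 change of -6.23 ± 0.93 (edgeR adjusted p = 0.111). Nuclear rRNA still took 47.6% and 56.6% of the reads in wild type and 51.9% and 64.1% in the deletion strain.

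In the nucleolus, snoRNAs guide chemical modification of rRNA, and a few are needed for cleavage of the rRNA precursor. Box C/D snoRNAs carry a box C near the 5′ end and a box D near the 3′ end, bind fibrillarin, Nop56, Nop58 and Snu13, and pair with rRNA just upstream of a D box to place a ribose methyl group. Box H/ACA snoRNAs end in a short tail after an ACA triplet, bind the pseudouridine synthase Cbf5 with Gar1, Nhp2 and Nop10, and direct the conversion of uridine to pseudouridine. In yeasts, snoRNAs come from their own promoters, from transcripts that carry several of them, or from introns of protein-coding genes, and exonucleases trim them to their final ends.

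The 48 snoRNAs were 73 to 326 bases long, with a median of 93.0 bases. There were 28 on chromosome 1, 18 on chromosome 2 and 2 on chromosome 3. RefSeq product names gave a box H/ACA class to 16. The letters GATG, the core of box C, in the first 20 bases together with CTGA, box D, in the last 15 bases were found in 26 others, and RefSeq names snoZ30 as a C/D RNA, which made 27 box C/D members. The remaining 5 (snoZ5, snR88, snoR02, snR30 and sno16) were left without a class, although snR30, RefSeq product U17, is known as an H/ACA RNA. Both box C/D motifs, read on the transcript strand only, were present in 54.2% of the snoRNA features and in 0.134% of 6722 other nuclear features. ACA within the last 8 bases was found in 75% of the H/ACA-named members and in 10.2% of the other nuclear features.

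The transcript snoZ (SPNCRNA.659), on the plus strand of chromosome 1 (chr1:526641-528541), carries 5 snoRNAs, which are shown because they share a transcript and yet differed in level and in strain difference. Coordinates and sequences are those of RefSeq build ASM294v3. The build behind the gene table is not stated by its labels or header, but the table's coordinates equalled those of ASM294v3 for 46 of 48 snoRNAs and for 46 of 46 nuclear rRNA genes. The members of the transcript lie at chr1:526726-526803, chr1:526937-527036, chr1:527191-527275, chr1:527387-527474 and chr1:527624-527713, in the order printed. Capitals mark the GATG of box C and the CTGA of box D. No capitals are given for snoZ5, in which the motif pair was not found in those windows.
snoZ8: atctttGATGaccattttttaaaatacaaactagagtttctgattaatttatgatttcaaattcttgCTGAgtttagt
snoZ7: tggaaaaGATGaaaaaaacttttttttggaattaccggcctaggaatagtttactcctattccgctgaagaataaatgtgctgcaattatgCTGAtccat
snoZ5: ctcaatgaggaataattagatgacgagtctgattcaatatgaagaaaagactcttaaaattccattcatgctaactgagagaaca
snoZ4: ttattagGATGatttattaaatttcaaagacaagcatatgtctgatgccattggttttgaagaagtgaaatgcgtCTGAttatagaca
snoZ3: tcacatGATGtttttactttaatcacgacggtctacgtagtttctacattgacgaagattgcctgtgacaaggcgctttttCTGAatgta

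The next 4 box C/D RNAs had the largest reductions after snoZ4 among the C/D members whose libraries did not overlap between strains. Capitals here mark bases complementary to rRNA that end at most 2 bases upstream of a CTGA, with Watson-Crick pairs only. In snR41 (chr1:1200168-1200253, plus strand) 17 bases pair with 18S rRNA, and in snoZ16 (chr1:1234963-1235045, plus strand) 10 bases pair with 28S rRNA. In snoZ15 (chr2:1756122-1756222, minus strand) 14 bases and in snr62 (chr1:3851768-3851841, minus strand) 13 bases pair with 28S rRNA.
snR41: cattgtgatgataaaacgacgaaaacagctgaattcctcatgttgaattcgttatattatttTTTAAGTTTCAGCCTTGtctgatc
snoZ16: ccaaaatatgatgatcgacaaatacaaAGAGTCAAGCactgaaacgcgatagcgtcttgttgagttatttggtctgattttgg
snoZ15: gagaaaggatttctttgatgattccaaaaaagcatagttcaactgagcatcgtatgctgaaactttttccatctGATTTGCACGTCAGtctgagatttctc
snr62: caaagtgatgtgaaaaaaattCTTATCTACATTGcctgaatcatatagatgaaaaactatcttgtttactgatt

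A pairing stretch of at least 10 bases, within 20 bases upstream of a CTGA, was found at 14 of 41 such windows (34.1%) in the C/D class, against 156 of 7977 windows (1.96%) in a regular sample of the protein-coding features, 1 in 5. Such a stretch was also found in snoZ5 (12 bases), snR88 (13 bases) and snoR02 (15 bases), which were left without a class and are not in the C/D counts. These matches are descriptions of the sequence and were not tested as guide sites. The next 3 RNAs are shown because snoU14 (chr2:1308634-1308745, plus strand) and snR93 (chr2:3172781-3172923, plus strand) were higher in both deletion libraries, while sno12 (chr3:583416-583605, plus strand) had the smallest p of all snoRNAs. Capitals mark GATG and CTGA in snoU14 and the ACA near the 3′ end of the other two.
snoU14: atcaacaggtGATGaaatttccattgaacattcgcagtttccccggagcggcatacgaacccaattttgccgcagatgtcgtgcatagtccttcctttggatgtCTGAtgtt
sno12: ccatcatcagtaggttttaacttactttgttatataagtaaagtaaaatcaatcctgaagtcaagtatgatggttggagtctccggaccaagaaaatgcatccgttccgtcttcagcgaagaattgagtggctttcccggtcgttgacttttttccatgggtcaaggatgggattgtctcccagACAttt
snR93: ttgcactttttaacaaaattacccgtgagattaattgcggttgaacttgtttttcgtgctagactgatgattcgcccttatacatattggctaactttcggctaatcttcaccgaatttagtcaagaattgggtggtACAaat

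The members spanned a wide range of levels. RPKM, the deposited number of reads scaled by transcript length and by library size, puts RNAs of different length on 1 scale. It does not correct for how well RNAs of different length were recovered, which was not tested. Among the 46 snoRNAs that passed the filter on low counts, the mean RPKM over the 4 libraries ran from 38.6 for snoZ15 to 31970 for snR30, an 829-fold range. The median over all 48 was 4132 RPKM, against 3.81 RPKM for protein-coding features, and 36 snoRNAs lay above 1000 RPKM. The 2 that did not pass were the H/ACA RNAs snR97 and snR5, listed with at most 4.49 reads and 1 read in any library.

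**Figure D1:**
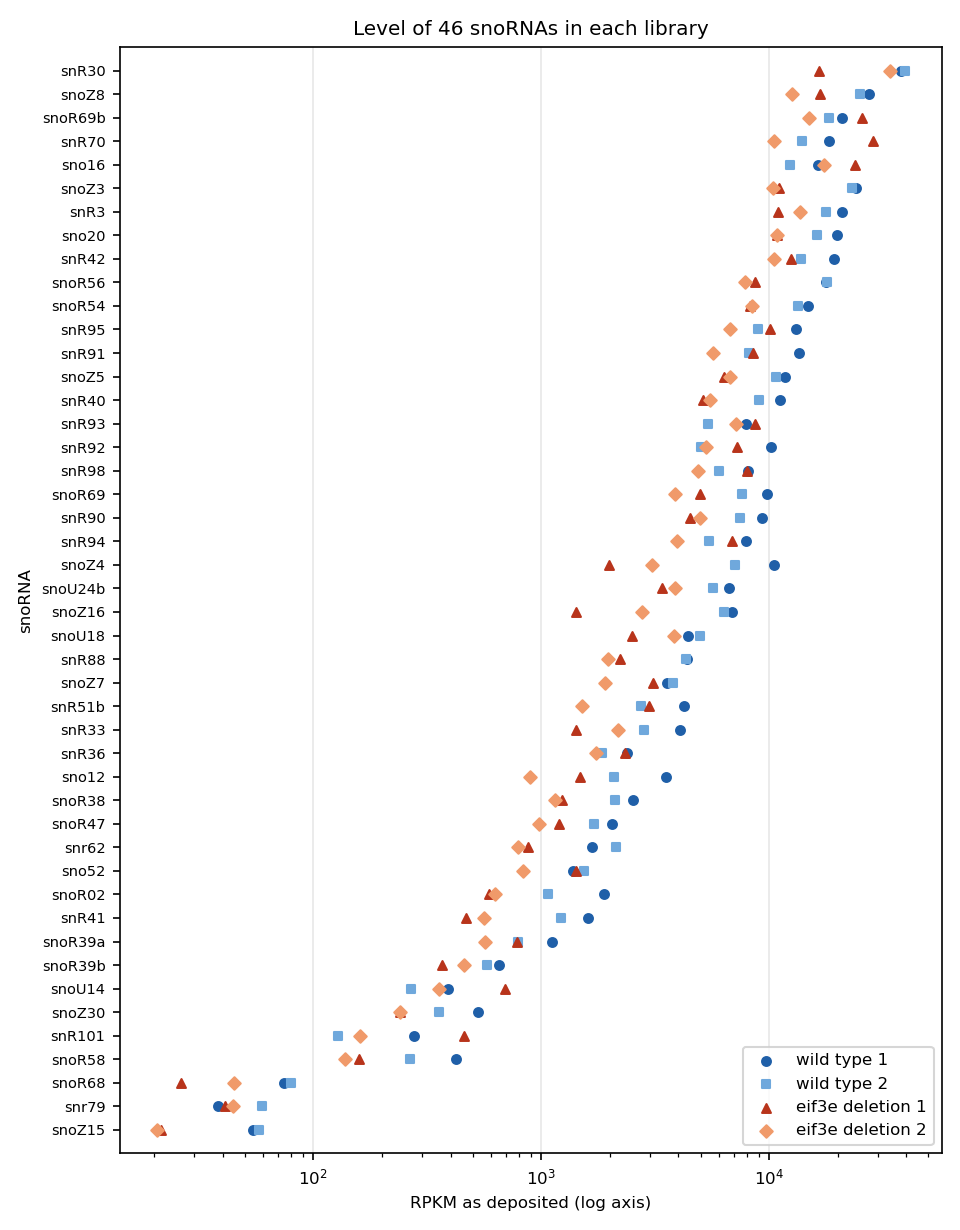
Deposited RPKM of 46 snoRNAs (vertical axis, ordered by mean) in each of the 4 libraries, on a log axis. For most RNAs the circles and squares of wild type lie to the right of the triangles and diamonds of the eif3e deletion, and the exceptions include snoU14, snR101, sno16 and snR93.

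The most abundant snoRNA was snR30, the U17 RNA, which in Saccharomyces cerevisiae is needed for processing of 18S rRNA. Its RPKM was 37918 and 39324 in wild type and 16615 and 34022 in the deletion strain. Both deletion libraries were lower, and deletion replicate 2 was close to wild type while replicate 1 was far below it. After edgeR's scaling of the libraries, which uses trimmed means over all features and gives scaled counts (CPM), snR30 overlapped between strains, at 10204 and 16072 CPM against 4794 and 16522 CPM. Next came snoZ8, with 27452 and 25095 RPKM in wild type and 16722 and 12591 in the deletion strain, without overlap. The box C/D RNA snoR69b had 20797 and 18352 RPKM in wild type and 25663 and 15002 in the deletion strain, so the deletion libraries lay on either side of both wild-type libraries. The 6 snoRNAs with the most reads held 49.3% and 51.7% of all snoRNA reads in wild type and 46.2% and 58.5% in the deletion strain.

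Most snoRNAs had lower fitted values in the eif3e deletion strain, but no single snoRNA passed the main test. Of the 46 tested, 0 had an edgeR quasi-likelihood adjusted p under 0.05, where 0.0169% of all 5915 features tested passed, which is 1 feature. At an unadjusted p under 0.05 there were 11 lower and 1 higher snoRNA, where 5.31% of all features were lower and 4.80% higher. DESeq2 called 2 snoRNAs lower, snoZ4 and sno12, against 0.693% of all features called lower. The titles give each wild-type library a code that it shares with the deletion library of the same number, without saying what it marks. With that number as a block in edgeR, 8 snoRNAs were called lower at adjusted p from 0.0242 to 0.0450 (snoZ4, snoZ3, snR41, snoZ16, snR88, snr62, snoR56 and sno12), against 1.78% of all features. The fitted log2 change (deletion over wild type) was below 0 for 38 of the 46, against 49.9% of all features, and its median was -0.52 for the snoRNAs and 0.00 for all features tested. Both deletion libraries lay below both wild-type libraries, in CPM, for 27 snoRNAs, where 21.4% of all features did so, and above them for 4, where 20.1% did. The libraries of the other 15 overlapped.

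This reduction was carried unequally by the 2 deletion libraries. Relative to the wild-type mean, the median snoRNA difference was -0.98 (log2) in deletion replicate 1 and -0.20 in deletion replicate 2. Replicate 2 was also the higher one in wild type, by a median log2 of 0.29, against 0.54 between the deletion libraries. Fitted without deletion replicate 1 the median change was -0.21, and without replicate 2 it was -0.99, when 4 snoRNAs passed edgeR's adjusted p of 0.05 (snoZ4, snR41, snoZ16 and snoR02) against 2.78% of all features called lower. Without wild-type replicate 1 the median was -0.67 and without wild-type replicate 2 it was -0.34. On the RPKM scale the median log2 ratio of the strain means was -0.75 for the 46 snoRNAs and -0.16 for all features with a value, with 40 snoRNAs lower and 6 higher. In bulk RNA of this kind, fewer copies per cell cannot be told apart from a change in the rest of the RNA pool.

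**Figure D2:**
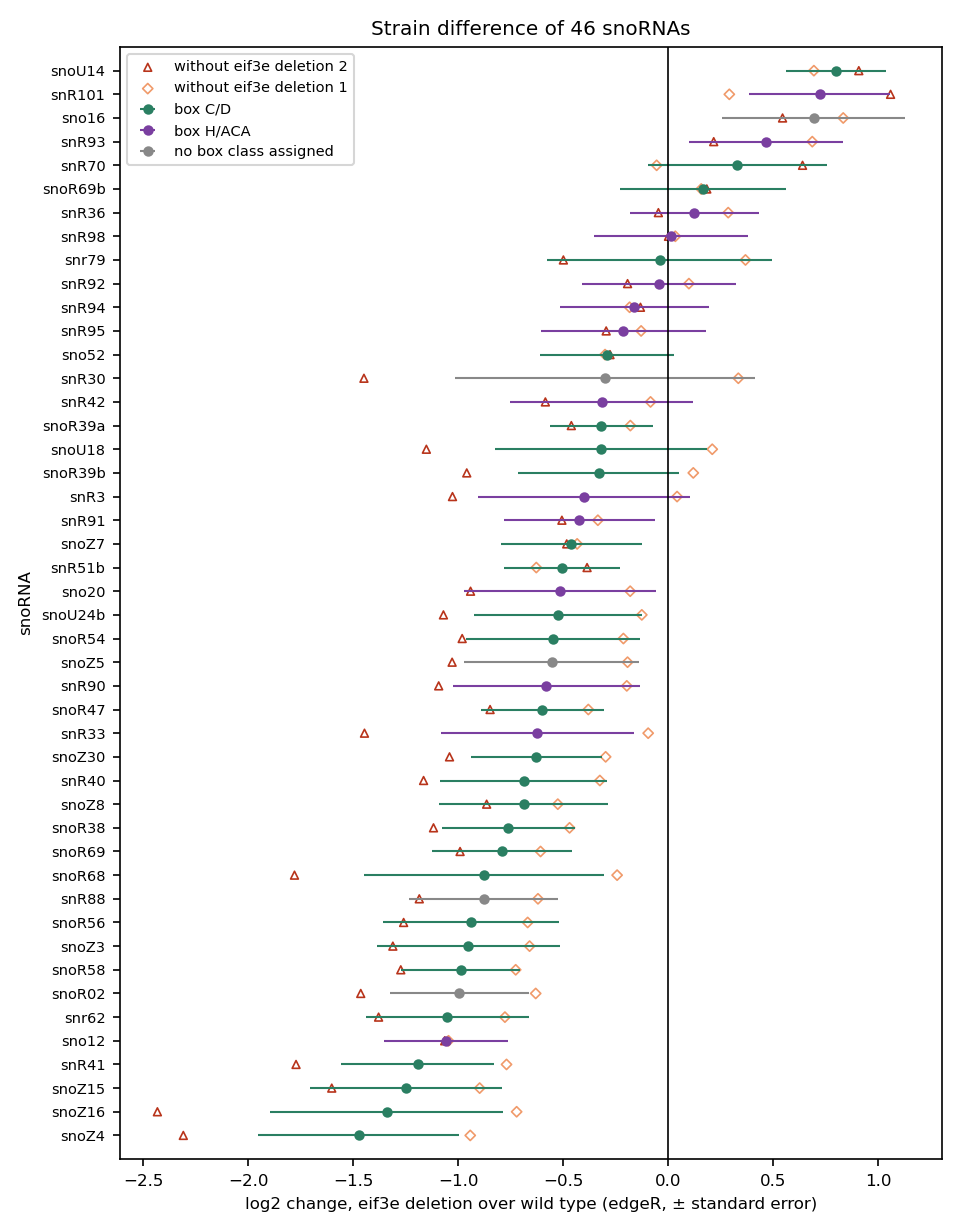
Fitted log2 change of 46 snoRNAs, deletion over wild type, as filled circles coloured by box class with the standard error as a bar, ordered from the highest at the top. Open triangles give the change without deletion replicate 2 and open diamonds without deletion replicate 1, and for most reduced RNAs the triangles lie farther from 0.

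Among the box C/D RNAs, 24 of 27 had a log2 change below 0, with a median of -0.63, and 17 had both deletion libraries below both wild-type libraries. Of all features tested, 49.9% had a log2 change below 0 and 21.4% had their libraries placed in that way. The largest reduction of any snoRNA was that of snoZ4, at 764 and 780 CPM in the wild-type libraries, against 155 and 401 CPM without eif3e. The strains did not overlap, and the 2 deletion libraries differed from each other more than the wild-type libraries did. The log2 change was -1.47 ± 0.48 (standard error), 2.78-fold lower, with an edgeR adjusted p of 0.374, and -0.94 without deletion replicate 1. DESeq2 gave snoZ4 an adjusted p of 0.0463.

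The RNA snoZ16 had 469 and 663 CPM in wild type, compared with 104 and 342 CPM in the deletion, a log2 change of -1.34 ± 0.55 (edgeR adjusted p = 0.482). Its libraries did not overlap, and without deletion replicate 1 the change was -0.72. The RNA snR41, which in S. cerevisiae guides methylation of small-subunit rRNA, had 114 and 131 CPM against 35.7 and 71.6 CPM, a log2 change of -1.19 ± 0.36 (edgeR adjusted p = 0.345). Both strains again kept apart, and the change was -0.77 without deletion replicate 1. The RNA snr62, whose S. cerevisiae counterpart guides methylation of large-subunit rRNA, had 102 and 198 CPM against 57.4 and 87.2 CPM, a log2 change of -1.05 ± 0.39 (edgeR adjusted p = 0.433). Here the wild-type libraries differed most, and the lower of them lay just above the higher deletion library.

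The least abundant tested member, snoZ15, had 4.54 and 7.31 CPM in the wild-type libraries, against 1.91 and 3.11 CPM without eif3e, a log2 change of -1.25 ± 0.46 (edgeR adjusted p = 0.429). It rested on 271 reads over the 4 libraries, and the strains did not overlap. The abundant snoZ3 had 1795 and 2609 CPM against 884 and 1391 CPM, a log2 change of -0.95 ± 0.44 (edgeR adjusted p = 0.517), with no overlap. For snoZ8 the values were 1767 and 2454 CPM against 1154 and 1463 CPM, also without overlap, a log2 change of -0.69 ± 0.40 (edgeR adjusted p = 0.632).

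Higher values in the deletion strain were found for 3 of the 27 box C/D RNAs. The RNA snoU14 is the counterpart of U14, which in S. cerevisiae is required for 18S rRNA production. It had 35.9 and 37.5 CPM in wild type, compared with 68.5 and 59.2 CPM in the deletion, with no overlap and close agreement within each strain. Its log2 change was 0.80 ± 0.24, 1.74-fold higher, with an edgeR adjusted p of 0.340, and stayed between 0.69 and 0.91 when any library was left out. On the RPKM scale, with 388 and 267 against 691 and 355, its strains overlapped. For snR70 the values were 1632 and 1883 CPM against 2725 and 1687 CPM, a log2 change of 0.33 ± 0.43 that became -0.06 without deletion replicate 1. For snoR69b they were 1562 and 2094 CPM against 2067 and 2034 CPM, a log2 change of 0.17 ± 0.39, with the deletion libraries inside the wild-type range.

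The box H/ACA RNAs had a smaller median reduction. Of the 14 that passed the filter, 10 had a log2 change below 0, with a median of -0.27, and 8 had both deletion libraries below both wild-type libraries. The shares over all features tested were 49.9% and 21.4%. The RNA sno12 had 554 and 496 CPM in the wild-type libraries, against 250 and 254 CPM without eif3e, so the deletion libraries were nearly equal and far below wild type. Its log2 change was -1.06 ± 0.29, 2.09-fold lower, with an edgeR adjusted p of 0.331, the smallest of all snoRNAs, and it ran from -1.14 to -0.98 when 1 library was left out. DESeq2 gave sno12 an adjusted p of 0.0333.

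The abundant H/ACA RNA snR3, which in S. cerevisiae guides pseudouridylation of large-subunit rRNA, had 2884 and 3710 CPM in wild type, compared with 1611 and 3387 CPM in the deletion. These overlapped, with a log2 change of -0.40 ± 0.50 that became 0.04 without deletion replicate 1. For sno20 the values were 2816 and 3514 CPM against 1641 and 2785 CPM, a log2 change of -0.52 ± 0.46, where deletion replicate 2 lay just below the lower wild-type library. On the higher side, snR101 had 62.4 and 44.1 CPM in the wild-type libraries, against 111 and 65.1 CPM without eif3e, a log2 change of 0.72 ± 0.34 (edgeR adjusted p = 0.520). Its strains did not overlap in CPM but did in RPKM, at 277 and 129 against 457 and 160. The RNA snR93 had 932 and 969 CPM against 1099 and 1525 CPM, a log2 change of 0.47 ± 0.37 (edgeR adjusted p = 0.733), again separate in CPM and overlapping in RPKM.

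Of the 5 RNAs without a box class, 4 had a log2 change below 0. The exception, sno16, had 2525 and 2909 CPM in wild type, compared with 3944 and 4828 CPM in the deletion, a log2 change of 0.69 ± 0.43 (edgeR adjusted p = 0.658). It was the only one of the 46 for which the deletion strain was separate and higher in RPKM as well, at 16360 and 12406 against 23829 and 17332 RPKM. It held 5.16% and 4.66% of all snoRNA reads in wild type and 11.2% and 8.56% in the deletion strain, so its part of the pool was larger in both deletion libraries.

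Shorter snoRNAs had the lower log2 changes. Of 25 members under 100 bases, 24 had a log2 change below 0, with a median of -0.69, and of 21 tested members of 100 bases or more, 14 did, with a median of -0.30. Spearman's rho between length and log2 change was 0.49 over the 46 members, 0.33 within the 27 box C/D RNAs and 0.04 within the 14 H/ACA RNAs, as a description of RNAs that share the same 4 libraries. Length and box class go together, since 22 of the 27 C/D members were under 100 bases and the shortest H/ACA member had 142 bases, so over all members they cannot be told apart. Across classes, the median log2 change was -0.90 for tRNAs, -0.38 for 6 other non-coding features under 150 bases, -0.57 for 27 of 150 to 350 bases and 0.05 for 48 protein-coding features under 350 bases. The other non-coding features are not free of snoRNAs. They include snR191 (SPNCRNA.499, 128 bases) at -0.09 ± 0.41 and snoR61 (SPNCRNA.445, 317 bases) at -1.11 ± 0.42, which carry snoRNA names under other identifiers. SPNCRNA.901 (281 bases), the transcript that snR91 overlaps, is also among them, at -0.67 ± 0.33. The 38 features of the mitochondrial genome were of 69 to 2822 bases, with a median of 75, and were not split by length or type. Their median log2 change was 0.96, with 30 higher and 21 without overlap between strains in that direction, as were 20.1% of all features. The 45 tested nuclear rRNA features, of 115 to 3485 bases with a median of 167, had a median of 0.40 with all 45 higher. All 45 overlapped between strains, and rRNA had been depleted before sequencing. Their median became -0.03 without wild-type replicate 1 and -0.28 without deletion replicate 2. The part of RNA length or fragment recovery in these differences was not tested.

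**Figure D3:**
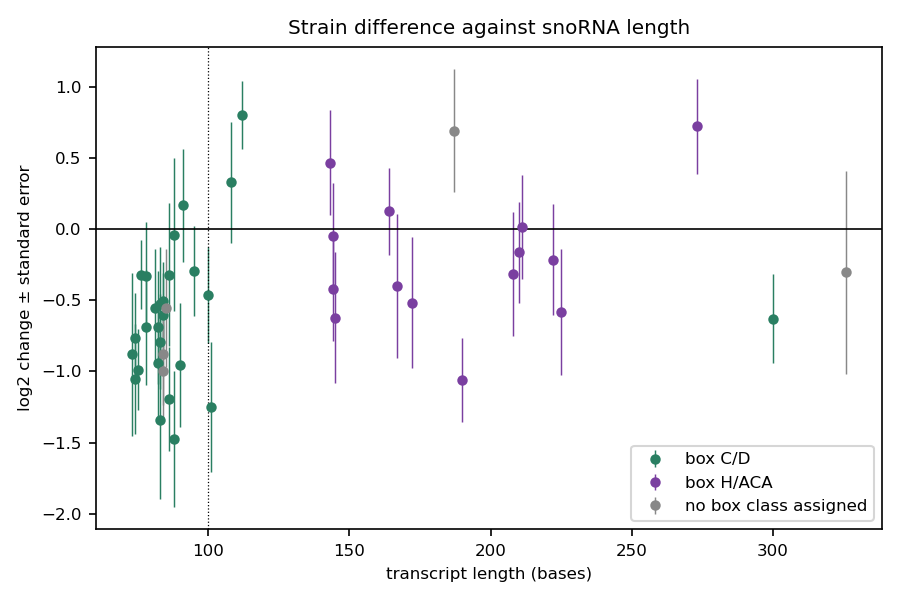
Fitted log2 change (vertical axis, with the standard error as a bar) against transcript length in bases for 46 snoRNAs, coloured by box class, with a dotted line at 100 bases. All but 1 of the points left of the line lie below 0, and the points to its right lie on both sides.

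Other small RNAs had the same imbalance between the deletion libraries. For tRNAs the median relative to the wild-type mean was -1.48 in deletion replicate 1 and -0.22 in replicate 2, for box C/D RNAs it was -1.04 and -0.37, and for box H/ACA RNAs -0.41 and -0.09. Protein-coding features stayed at 0.04 and 0.02. The wild-type libraries also differed in small RNAs, by a median log2 of 0.96 for tRNAs and 0.29 for snoRNAs, with replicate 2 higher. Between the deletion libraries these medians were 1.41 and 0.54, in the same direction. The 7 features of the snRNA group, which include the U3 genes snu3 and snu32, had a median log2 change of -0.23, and all 7 were below 0. U3, a box C/D RNA that pairs with the rRNA precursor, had log2 changes of -0.18 ± 0.54 for snu3 and -0.03 ± 0.59 for snu32, which at 56566 RPKM was more abundant than any of the 48 snoRNAs. For snu32 the CPM was 22219 and 26977 in wild type and 24618 and 23593 in the deletion strain, so the deletion libraries lay within the wild-type range.

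**Figure D4:**
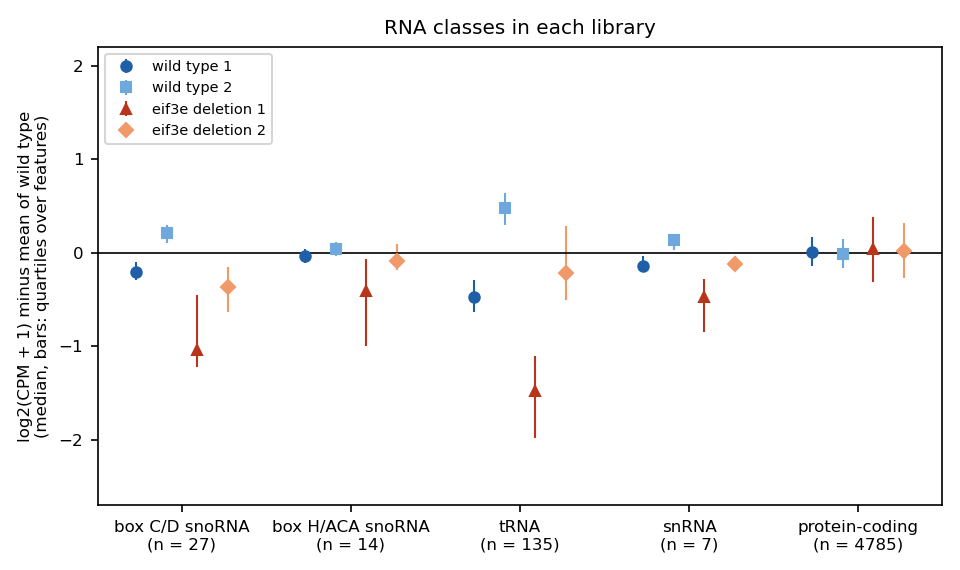
Median difference from the wild-type mean, in log2(CPM + 1), for 5 classes of RNA in each of the 4 libraries, with bars from the lower to the upper quartile over the features of the class. Deletion replicate 1 lies lowest in the 4 small-RNA classes, replicate 2 lies nearer to wild type, and protein-coding features stay near 0.

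By place, 9 snoRNAs lay in introns of protein-coding genes, 16 within a non-coding transcript, 1 (snr62) within a transcript with no RefSeq entry and 3 partly within a non-coding transcript, while 19 overlapped no feature on their own strand. The 9 intron-encoded snoRNAs all had a log2 change below 0, with a median of -0.55, while their host genes were lower in 6 and higher in 3, with a median of -0.12. The snoRNA change lay below that of its host in 7 of 9. Among the 20 snoRNAs that overlapped another transcript on their own strand outside introns, it did so in 6, with snR97 untested. In the host pfd1, a prefoldin subunit gene, the CPM was 73.8 and 94.9 in wild type and 111 and 104 in the deletion strain, a log2 change of 0.35 ± 0.26 beside -1.25 for snoZ15 in its intron. Here host and snoRNA lay apart in opposite directions in CPM. On the RPKM scale the strains overlapped for pfd1, at 97.3 and 82.4 in wild type against 137 and 76.0 in the deletion. In gua1, which encodes IMP dehydrogenase of guanine nucleotide synthesis, the CPM was 130 and 108 in wild type and 71.8 and 118 in the deletion strain, a log2 change of -0.33 ± 0.31. The snoR54 in its intron had 991 and 1363 CPM against 594 and 1013 CPM, a log2 change of -0.55 ± 0.41, and both overlapped between strains. The reverse order was seen for rlp7, a ribosome biogenesis gene related to ribosomal protein L7, which at -1.06 ± 0.27 was lower than the -0.32 ± 0.24 of snoR39a in its intron. The difference between snoRNA and host was not tested. Per length, the intron snoRNAs had from 0.393 (snoZ15 in pfd1) to 472 times (snoU18 in ero11) the mean RPKM of their host.

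Within the snoZ transcript, all 5 snoRNAs had a log2 change below 0, at -0.69 for snoZ8, -0.46 for snoZ7, -0.56 for snoZ5, -1.47 for snoZ4 and -0.95 for snoZ3, beside -0.58 ± 0.31 for the transcript itself. Their mean RPKM differed 6.65-fold, from 3078 for snoZ7 to 20465 for snoZ8, and did not follow their order along the transcript. In the second such transcript, SPNCRNA.723 (chr1:1200009-1200876), the 3 snoRNAs differed 18.5-fold in mean RPKM and in the sign of the fitted change. There snR41 had a log2 change of -1.19 ± 0.36, snR51b of -0.51 ± 0.28 and snR70 of 0.33 ± 0.43, beside -0.67 ± 0.27 for the transcript. The value for snR70 became -0.06 without deletion replicate 1, and differences between members were not tested. How reads were divided between a transcript and the snoRNAs inside it is not stated, so the values of these host transcripts are uncertain. Of the 14 host transcripts outside introns, 13 had a log2 change below 0, with a median of -0.62. The 13 tested snoRNAs with no overlap on either strand, where reads need no such division, had a median of -0.52, with 9 lower and 4 higher. The 5 that overlapped a feature on the opposite strand only had a median of -0.05, with 4 lower, and whether counting used the strand is not stated. No 2 members shared a stretch longer than 13 bases, the length shared by snoR39a with snoR39b and by snoR69 with snoR69b.

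**Figure D5:**
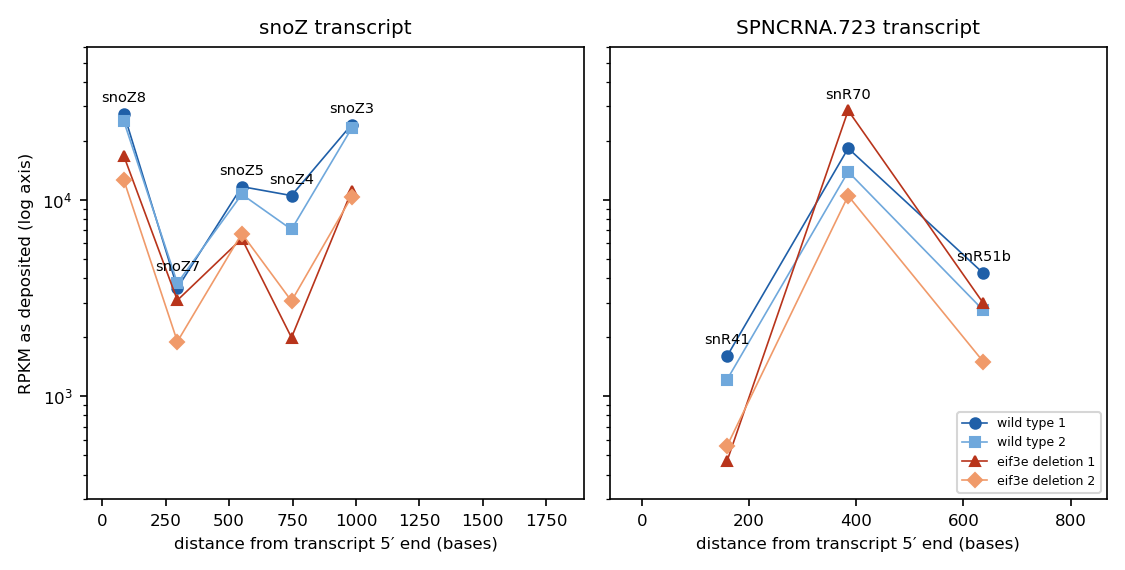
Deposited RPKM (log axis) of the snoRNAs in the snoZ transcript (left) and in SPNCRNA.723 (right) against the distance of each snoRNA from the 5′ end of the transcript in bases, one line per library. In the snoZ transcript both deletion libraries lie below both wild-type libraries for all 5 RNAs, and in SPNCRNA.723 snR70 has its highest value in deletion replicate 1.

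As a pool, snoRNAs took 6.47% and 5.34% of all reads on features in wild type and 4.37% and 4.02% in the deletion strain. The strains did not overlap, and the two-sided exact permutation test gave p = 0.333, the smallest p that 2 against 2 libraries allow. With rRNA reads left out, the share was 12.4% and 12.3% against 9.08% and 11.2%. As a percent of protein-coding reads it was 37.1 and 44.6 against 26.9 and 39.2, where the strains overlapped.

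Of 41 tested genes for proteins that build and trim snoRNAs, 0 passed edgeR's adjusted p of 0.05, where 0.0169% of all features did, so the count is near that of the background. With the replicate block rrp4 passed (edgeR adjusted p = 0.0447), in a fit that called 193 of all 5915 features. Without deletion replicate 2 the log2 change was 2.27 for tgs1, -1.86 for exo2 and -1.61 for rrp4. Without deletion replicate 1 it was 1.49, -0.51 and -1.07. Of the 4 box C/D core proteins, 3 were below 0, with a median log2 change of -0.22. The methyltransferase gene fib1 was at 0.07 ± 0.26, and nop56, which lies beside int6 on chromosome 2, was at -0.47 ± 0.31. Of the 4 box H/ACA core proteins, all were below 0, with a median of -0.28, and the pseudouridine synthase gene cbf5 was at -0.29 ± 0.25. Of 10 listed assembly and cap factors, 8 were in the table, 5 of them below 0, with a median of -0.06. The widest difference among them was that of tgs1, which encodes the enzyme that forms the trimethylated cap, at 1.51 and 1.06 CPM in the wild-type libraries, against 6.41 and 3.70 CPM without eif3e. Its strains did not overlap, and its log2 change was 1.95 ± 0.50 (edgeR adjusted p = 0.294). Of 25 genes for end processing, 18 were below 0, with a median of -0.22. The exosome gene rrp4 had 18.8 and 15.8 CPM against 5.67 and 8.25 CPM, without overlap, a log2 change of -1.33 ± 0.31 (edgeR adjusted p = 0.257). Another exosome gene, rrp40, was at -0.97 ± 0.34, and dhp1, the nuclear 5′ to 3′ exonuclease gene, at 0.59 ± 0.24 (edgeR adjusted p = 0.403 and 0.482).

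The authors' deposited table also holds a p-value per feature, computed across all libraries together. This p-value does not compare wild type with deletion alone, so differences between replicates of the same strain can also lower it. In the authors' deposited table it was under 0.05 for 46 of the 48 snoRNAs (95.8%) and for 6175 of all 6808 features (90.7%), so nearly every feature passed there. The exceptions among the snoRNAs in the authors' deposited table were snr79, with a p of 0.0810, and snR5, with a p of 0.419.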

How the data were processed

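Counts and RPKM were read from 1 deposited table, which covers 2 wild-type and 2 eif3e deletion libraries. Per the file headers, it gives for each feature the estimated counts (reads), RPKM, a p-value, a chi-square score and the transcript length that the authors deposited. Per the submitters' processing notes, Bowtie 1.1.0, TopHat 1.4.1, SAMtools and Partek 6.0 were used, with no role stated there. Between 89.6% and 91.9% of the deposited counts were whole within 1e-06, and the others were rounded. No column was left without a library (0). Libraries of 1 strain differed beyond sampling noise (chi-square per degree of freedom 109 and 248).

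The rounded counts were fitted with edgeR 4.0.16 (TMM scaling, filterByExpr, quasi-likelihood test, strain only, Benjamini-Hochberg adjustment over 5915 features). The standard error was the log2 change divided by the root of the F statistic. On simulated data for this comparison over 5915 features, 10.8% of 2-fold, 61.6% of 4-fold and 99.6% of 8-fold changes were recovered. The simulation gave every feature the same spread between libraries (common dispersion 0.111) and left out the imbalance between replicates. Recovery in the real data may therefore be lower, and int6, 75.0-fold lower, did not pass there (edgeR adjusted p = 0.111). DESeq2 1.42.0, limma-voom 3.58.1, other scalings, no filter, a replicate block and leaving out each library were alternatives. Named were the 8 snoRNAs with the highest RPKM, up to 6 per direction with the widest change among those not overlapping, up to 6 within a host by RPKM, U3, int6 and up to 6 genes per protein list. The members, lists and tests were chosen with earlier results of these data known.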

Additional observations from a re-analysis of the deposited data

How the results depend on the processing

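Scaling by RLE factors, limma-voom and the ratio of mean deposited RPKM (chosen after seeing the data) left the count of snoRNAs called at 0 where they test, and the median snoRNA change between -0.75 and -0.52. Protein-coding library sizes called 12 of all features and no filter 20, with 0 snoRNAs in each. DESeq2 called 90 features, 2 of them snoRNAs. A replicate block in the edgeR model gave 193 called features, 8 of them snoRNAs. The deviations of same-numbered libraries from their strain means had a correlation of 0.24 over all features and 0.40 over the 46 snoRNAs, and with 2 pairs and a shared code of unstated meaning in the titles, whether the libraries are paired is not settled. The block and a left-out library could not be fitted together.

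Leaving out 1 library at a time, all features called ranged from 0 to 242 and snoRNAs called from 0 to 4, both highest without deletion replicate 2. The median snoRNA change ranged from -0.99 to -0.21, and the log2 ratio of read shares from -0.63 to -0.35, against -0.49 with all libraries. The log2 change reversed for snR30 (range -1.45 to 0.33, with 0.06 without wild-type replicate 2), snR3 (-1.03 to 0.041), snR70 (-0.056 to 0.64) and snoR69b (-0.035 to 0.39). The box C/D median ranged from -1.04 to -0.38 and the box H/ACA median from -0.40 to -0.09. Of 180 values for the 18 named snoRNAs under the alternatives, 164 kept direction and side of the threshold, 11 passed it, 5 reversed and 0 were lost, and the cause of these changes was not tested. No snoRNA passed the threshold in the main fit, so none could be lost under the alternatives. With 2 libraries per strain, changes of 2-fold were mostly below what the test recovered in the simulated data, which had the same spread for every feature.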
